A study of Mus musculus with 3 samples.

Results

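The type I interferon-induced genes described here are 36 genes of the mouse, out of the 29994 gene symbols listed in each library. They were chosen by name as classical members of that response, with earlier results of these data known. All 36 were found, from Ifit1 to Sp100. Messenger RNA was counted in 10x Genomics droplets from frozen ventricles of C57B6 mice, with 1 library per group and 3 pooled hearts in each library. The TAC+ART library came from mice with transverse aortic constriction, a banding of the aorta that loads the left ventricle with pressure, given artesunate, an antimalarial of the artemisinin family. The TAC library came from mice with the same operation given vehicle, and the Sham library from sham-operated mice given vehicle. The sources used here give no dose, time after surgery, age or sex, and do not say if the droplets held cells or nuclei. The word cell stands below for a barcode. The comparisons ask how the pressure load (TAC over Sham) and the drug under load (TAC+ART over TAC) bear on these genes in each cell class.

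Cells were assigned to classes by the share of their UMIs (unique molecular identifiers, 1 per captured RNA molecule) that fell in marker genes of the class. After removal of doublets there were 6480 cells in TAC+ART, 6972 in TAC and 3638 in Sham. Endothelial cells numbered 1590 in TAC+ART, 1846 in TAC and 1048 in Sham, macrophages 894, 1260 and 295 in the same order, and fibroblasts 1935, 1733 and 1091. Cardiomyocytes numbered 301, 191 and 292 cells, pericytes 361, 319 and 376, endocardial cells 210, 309 and 184 and lymphatic endothelial cells 137, 234 and 72, again in the order TAC+ART, TAC and Sham. Levels are UMIs of a gene per 1000000 UMIs of its class in that library (CPM). They are not divided by transcript length, so a gene is compared with itself across classes and libraries and not with another gene. Since each group is 1 library, no test between groups was possible. The 95% intervals given below are for counting error alone and hold nothing of the spread between hearts or tissue preparations. Those of levels and ratios also leave out the uneven spread of UMIs over cells.

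Type I interferons bind the receptor pair Ifnar1 and Ifnar2, whose kinases Jak1 and Tyk2 phosphorylate Stat2. With Irf9 it takes part in the factor ISGF3, which binds the interferon-stimulated response element in the promoters of its target genes. The products of those genes sense foreign nucleic acid, block translation, degrade RNA, starve viruses of nucleotides or tag proteins with the ubiquitin-like modifier Isg15. Resting tissue holds a low, tonic level of many of them, and the heart's macrophages and endothelium are known to respond to interferon.

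The response element can be looked for in the reference sequence. The following promoters belong to members with unlike values below. Each holds a match to the element, so they do not stand for the members without one. Each is the 250 bases before the transcript start in RefSeq (GRCm38.p6), written 5′ to 3′ along the gene, with matches to the response element, searched as GAAA, any 2 bases and GAAA on either strand, in capitals. Ifit1 lies on the plus strand at chr19:34640639-34640888 and Isg15 on the minus strand at chr4:156200819-156201068. Rsad2 lies on the minus strand at chr12:26456453-26456702, Ddx60 on the plus strand at chr8:61927837-61928086 and Bst2 on the minus strand at chr8:71537473-71537722.
Ifit1: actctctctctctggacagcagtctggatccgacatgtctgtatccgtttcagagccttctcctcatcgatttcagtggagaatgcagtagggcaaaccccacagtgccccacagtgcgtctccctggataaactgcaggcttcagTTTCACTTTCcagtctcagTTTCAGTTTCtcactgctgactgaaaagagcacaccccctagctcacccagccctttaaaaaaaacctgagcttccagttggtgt
Isg15: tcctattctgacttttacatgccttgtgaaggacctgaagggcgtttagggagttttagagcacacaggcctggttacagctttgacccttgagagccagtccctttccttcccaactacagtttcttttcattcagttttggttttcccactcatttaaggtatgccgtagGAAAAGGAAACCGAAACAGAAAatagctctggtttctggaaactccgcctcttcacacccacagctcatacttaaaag
Rsad2: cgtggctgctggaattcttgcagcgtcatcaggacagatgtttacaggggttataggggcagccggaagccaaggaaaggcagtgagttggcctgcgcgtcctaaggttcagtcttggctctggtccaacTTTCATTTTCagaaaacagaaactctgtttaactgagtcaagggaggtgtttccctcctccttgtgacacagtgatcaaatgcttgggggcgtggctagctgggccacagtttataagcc
Ddx60: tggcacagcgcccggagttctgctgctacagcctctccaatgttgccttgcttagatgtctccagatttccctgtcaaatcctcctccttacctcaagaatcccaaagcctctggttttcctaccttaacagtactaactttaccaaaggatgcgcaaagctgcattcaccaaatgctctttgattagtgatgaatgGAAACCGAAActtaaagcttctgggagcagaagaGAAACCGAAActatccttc
Bst2: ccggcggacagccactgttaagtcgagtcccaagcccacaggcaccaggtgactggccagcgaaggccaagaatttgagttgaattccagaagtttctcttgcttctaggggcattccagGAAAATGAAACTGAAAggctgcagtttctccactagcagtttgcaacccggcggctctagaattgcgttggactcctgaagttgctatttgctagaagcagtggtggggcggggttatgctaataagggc

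Ifit1 holds 2 separate matches, which begin 104 and 85 bases before the start and read on the opposite strand. Isg15 holds 3 overlapping matches that begin 78, 72 and 66 bases before the start, and Bst2 holds 2 that overlap. Rsad2 holds 1 match, 120 bases before the start, and Ddx60 holds 2 that begin 53 and 19 bases before it. Over windows from 250 bases before to 50 bases after the start, 14 of the 27 members in the RefSeq promoter table held at least 1 match (51.9%), beside 3.99% of all 27025 genes in the table. With 2 or more matches there were 7 members, beside 0.266% of all genes. Members without a match included Sp100, Irf7 and Oasl1. The gamma-activated site, searched as TTCNNNGAA, was found in 5 of the 27 members (18.5%), beside 9.55% of all genes. A match is a description of the letters and not of binding.

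The members as a group were high in macrophages and endothelial cells and low in cardiomyocytes. In macrophages their summed level was 2902 CPM in TAC+ART (2851 to 2953), 2415 in TAC (2377 to 2453) and 3270 in Sham (3171 to 3371). In endothelial cells it was 2789 CPM in TAC+ART (2750 to 2830), 2286 in TAC (2254 to 2319) and 3040 in Sham (2986 to 3094). Both classes were thus lowest in TAC and highest in Sham, with TAC+ART between them and no overlap of the counting intervals. Endocardial cells kept the same order, with 1815, 1475 and 1943 CPM in TAC+ART, TAC and Sham. Their intervals for TAC+ART (1741 to 1891) and Sham (1855 to 2034) overlapped. Fibroblasts kept the order too, with 1300 CPM in TAC+ART, 1190 in TAC and 1491 in Sham. Lymphatic endothelial cells (1448, 1492 and 1480 CPM in TAC+ART, TAC and Sham) and pericytes (930, 929 and 976 CPM) differed by less than the counting error. Cardiomyocytes held 320 CPM in TAC+ART, 309 in TAC and 239 in Sham, and were the only class among these 7 in which Sham was lowest beyond the counting error.

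**Figure D1:**
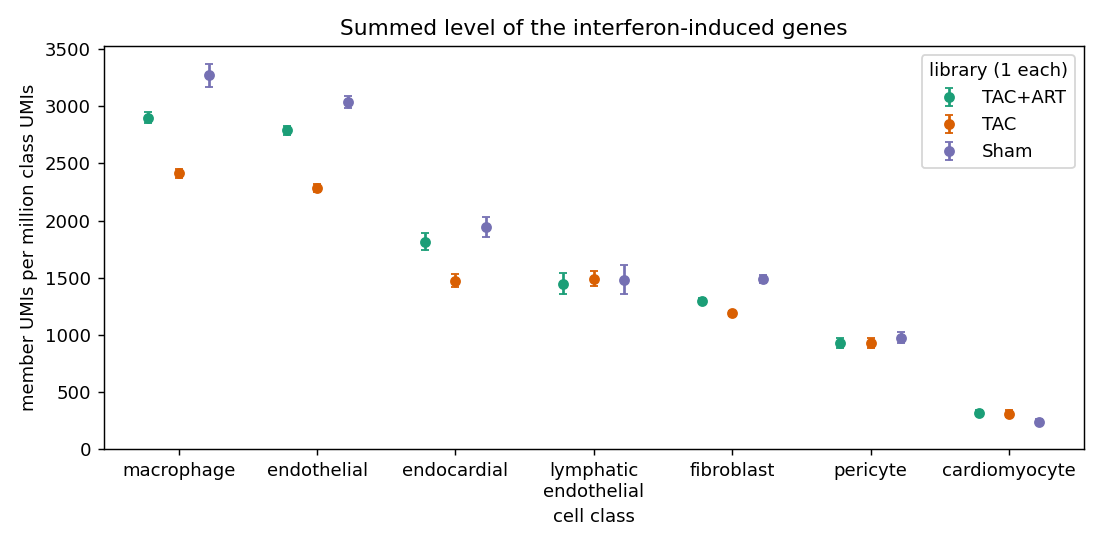
UMIs of the 36 members per 1000000 UMIs of the class (y axis) in 7 cell classes (x axis), 1 point per library, with bars for the 95% counting interval. Macrophages reach 2902, 2415 and 3270 CPM in TAC+ART, TAC and Sham, while cardiomyocytes lie at 320, 309 and 239 CPM.

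A few members carried much of the sum. Sp100, a component of nuclear bodies that restrict viral DNA, gave 16.7% of the member UMIs in TAC+ART endothelial cells, 15.6% in TAC and 18.4% in Sham. In macrophages Ddx60, a helicase that aids RNA sensing, gave 20.2% in TAC+ART and 17.4% in Sham, while in TAC the leading member was Sp100 with 11.5%. The other members with many UMIs in these classes were Rnf213, a very large ubiquitin ligase, Trim30a, a ubiquitin ligase of the Trim family, and Parp14, an enzyme that attaches ADP-ribose to proteins.

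Members differed in where they were highest. By the mean CPM over the 3 libraries, 18 members were highest in macrophages, 15 in endothelial cells, 2 in lymphatic endothelial cells (Bst2 and Ifi27) and 1 in endocardial cells (Ifit3), among the 7 classes above. The class was the same in all 3 libraries for 13 of the 18 and 10 of the 15. Cardiomyocytes were lowest for 32 of the 36.

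The oligoadenylate synthetases, which make the messenger that activates RNase L, leaned to macrophages. Oas2 reached 159, 156 and 212 CPM in TAC+ART, TAC and Sham macrophages, against 59.9, 48.3 and 64.9 CPM in endothelial cells of the same libraries. Oas1a reached 29.4, 34.9 and 45.6 CPM in macrophages and 10.0, 13.9 and 15.9 CPM in endothelial cells, again for TAC+ART, TAC and Sham. In each library macrophages were thus the highest of the 7 classes for both genes. Oas3 was close to undetected, with 30 UMIs in TAC+ART, 45 in TAC and 5 in Sham over all cells. Oas1a has close paralogs, between which reads may have been divided.

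Mx1, a GTPase that traps viral nucleocapsids and is defective in most laboratory mouse strains, was nearly confined to macrophages. It had 45.0, 30.8 and 47.2 CPM there in TAC+ART, TAC and Sham, a mean 16.0 times that of the next class, fibroblasts. Ddx60 was 3.39 times and Zbp1, a sensor of Z-form nucleic acid, 2.72 times as high in macrophages as in the next class by the same means.

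Rsad2 (viperin), which makes a chain-terminating nucleotide, was the most endothelial member. It reached 136 CPM in TAC+ART, 101 in TAC and 109 in Sham endothelial cells, 4.53 times the mean of lymphatic endothelial cells. In cells thinned to 2000 UMIs each, 18.6% of TAC+ART, 14.1% of TAC and 12.8% of Sham endothelial cells had an Rsad2 UMI, while 2.04%, 1.63% and 0.712% of cardiomyocytes did. Without thinning these shares were 30.6%, 23.7% and 19.1% of endothelial cells and 6.31%, 3.14% and 2.74% of cardiomyocytes, whose median depth was 6874, 5704 and 7657.5 UMIs against 3975.5, 4132.5 and 3521.5 in endothelial cells. Cmpk2, a mitochondrial nucleotide kinase and the next gene to Rsad2 on chromosome 12, was likewise highest in endothelial cells, 2.96 times the next class. Cardiomyocytes of TAC+ART, TAC and Sham held 10.4, 8.63 and 12.8 CPM of Irf9 and 18.3, 19.0 and 16.7 CPM of Stat2, both subunits of ISGF3, and 51.4, 27.6 and 41.7 CPM of Parp9, a partner of the ubiquitin ligase Dtx3l.

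**Figure D2:**
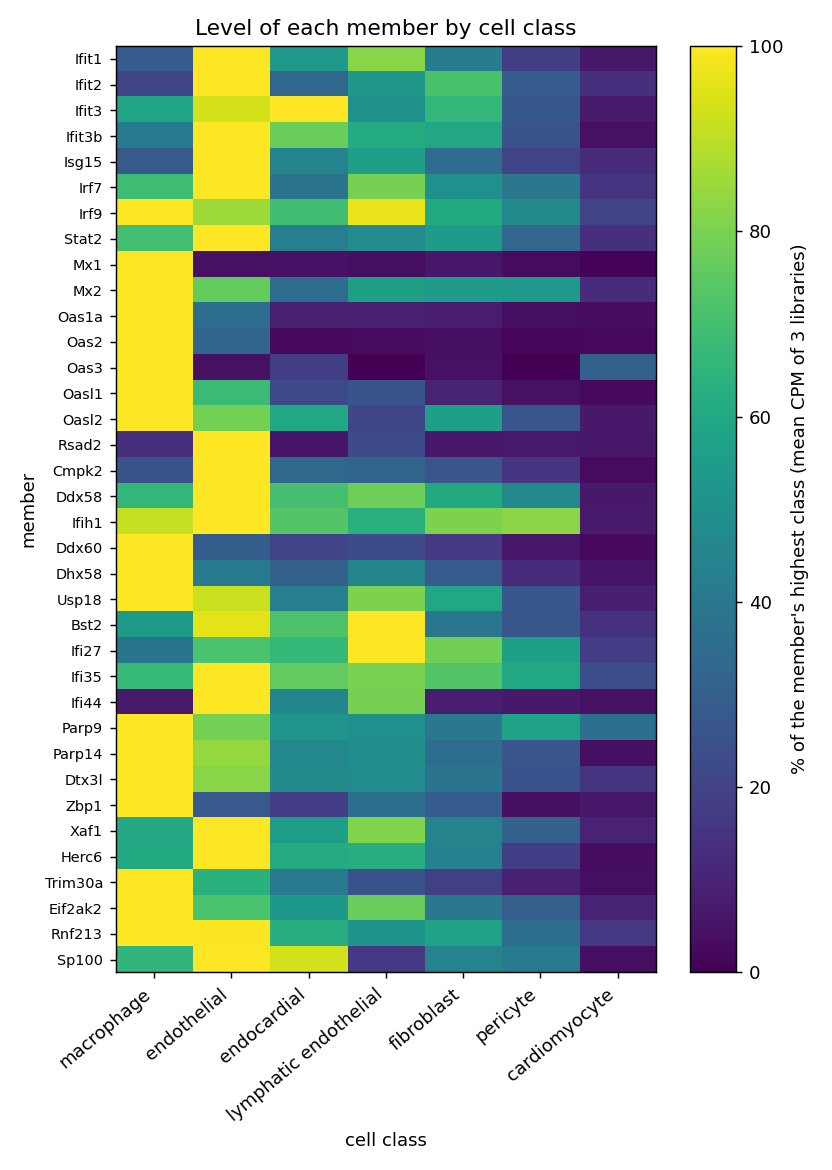
Level of each of the 36 members (rows) in 7 cell classes (columns), as percent of the member's own highest class, from the mean CPM of the 3 libraries. Mx1, Oas2 and Ddx60 peak in macrophages and Rsad2, Cmpk2 and Ifi44 in endothelial cells, and 32 of the 36 rows are lowest in cardiomyocytes.

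In endothelial cells most members were higher in TAC+ART than in TAC. The Ifit genes, whose products bind foreign RNA and hinder its translation, led the difference together with Cmpk2, Ddx60 and Oasl2. Ifit3 had 23.0 CPM in TAC+ART, 14.9 in TAC and 16.9 in Sham endothelial cells, and a log2 ratio of TAC+ART over TAC of 0.63 (0.28 to 0.98). Its near copy Ifit3b had 8.56 CPM in TAC+ART, 4.23 in TAC and 9.81 in Sham, and a ratio of 1.01 (0.39 to 1.66). How reads that match both genes of this pair were counted is unknown here, so their single values are uncertain.

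Ddx60 had 158 CPM in TAC+ART, 92.6 in TAC and 157 in Sham endothelial cells, a log2 ratio of TAC+ART over TAC of 0.77 (0.63 to 0.90). Oasl2, a synthetase-like protein, had 94.4 CPM in TAC+ART, 57.4 in TAC and 102 in Sham, with 0.72 (0.54 to 0.89). Cmpk2 had 24.3 CPM in TAC+ART, 13.7 in TAC and 25.7 in Sham, with 0.83 (0.48 to 1.19). For these 3 genes TAC stood apart below both other libraries, which differed from each other by less than their counting error.

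Of the 34 members with at least 50 UMIs in the 2 libraries, 30 were higher in TAC+ART than in TAC and 4 lower, with a median log2 ratio of 0.30 beside -0.01 over all genes tested. By 1.5-fold or more, 6 were higher (those 5 and Ifit2), where 6.66% of all genes tested were, and none lower, where 5.58% of all genes were. The 4 lower members were Oas1a, Ifi27, Oasl1 and Ddx58. Ifi27, a small membrane protein, had 46.6 CPM in TAC+ART, 55.6 in TAC and 43.8 in Sham.

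Between TAC and Sham, which shares the TAC library with the comparison above, 30 of 33 members were lower in TAC endothelial cells. The median log2 ratio was -0.37, beside -0.05 over all genes tested, and 7 members were lower by 1.5-fold or more, where 9.46% of all genes were. Stat2 had 126 CPM in TAC+ART, 98.0 in TAC and 174 in Sham, and a ratio of TAC over Sham of -0.83 (-0.97 to -0.68). Ifit1 had 26.4 CPM in TAC+ART, 17.7 in TAC and 31.4 in Sham, with -0.83 (-1.19 to -0.48). Sp100 had 466 CPM in TAC+ART, 356 in TAC and 559 in Sham, so its TAC+ART value lay between the others, beyond counting error on both sides. The ratios of TAC over Sham for Oasl2, Ddx60, Cmpk2 and Ifit3b were -0.82, -0.76, -0.91 and -1.21.

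The 3 members higher in TAC than in Sham endothelial cells were Bst2, Ifi27 and Isg15, none by 1.5-fold, where 10.8% of all genes were. Bst2 (tetherin), which holds budding virions to the cell, had 86.6 CPM in TAC+ART, 80.9 in TAC and 63.4 in Sham. Isg15 had 28.9 CPM in TAC+ART, 24.9 in TAC and 23.9 in Sham, which differ by less than counting error. The summed log2 ratio of TAC over Sham was -0.41 (-0.44 to -0.38), and -0.20 when cells with 10 or more member UMIs were left out. The sum of TAC+ART over TAC was 0.29 (0.26 to 0.32).

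The endothelial class drew on different clusters in the libraries, and of the 4 with values in all libraries, 2 kept the order of the class. In the first, with 640, 703 and 420 cells of TAC+ART, TAC and Sham, the members summed to 2766 CPM in TAC+ART, 2308 in TAC and 3094 in Sham. In the second, which held 1086 TAC cells, with 593 of TAC+ART and 117 of Sham, they summed to 2408, 2075 and 2688 CPM in TAC+ART, TAC and Sham. The cluster led by Ccdc85a and Ablim3, with 627, 178 and 441 cells, went the other way, with 3171 CPM in TAC+ART, 3859 in TAC and 3251 in Sham. The small cluster of 67, 116 and 48 cells had 2095 CPM in TAC+ART, 1663 in TAC and 1815 in Sham, so that TAC was lowest but TAC+ART highest. The interval of Sham (1635 to 2009) overlapped those of TAC (1556 to 1776) and TAC+ART (1936 to 2264). Ccdc85a and Ablim3 were also among the top genes of the second cluster, so they do not mark 1 cluster alone. Rsad2 had 248, 284 and 175 CPM in TAC+ART, TAC and Sham in the cluster with 178 TAC cells. It had 125, 107 and 108 CPM in the second cluster, in the same order. In the first it had 69.0, 66.7 and 70.4 CPM, and in the small one 46.0, 9.26 and 4.89 CPM.

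In macrophages the difference between TAC+ART and TAC lay largely in 1 member. Ddx60 had 587 CPM in TAC+ART, 223 in TAC and 569 in Sham macrophages. Its log2 ratio was 1.39 (1.30 to 1.49) for TAC+ART over TAC and -1.35 (-1.48 to -1.22) for TAC over Sham, while TAC+ART and Sham differed by 0.05 (-0.07 to 0.17). The summed ratio of TAC+ART over TAC was 0.27 (0.23 to 0.30) with Ddx60 and 0.08 without it.

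The low Ddx60 of TAC macrophages was present with and without the resident-type marker Cd163, a haemoglobin scavenger receptor. Among macrophages with a Cd163 UMI, Ddx60 had 640 CPM in TAC+ART (612 to 669), 239 in TAC (224 to 256) and 644 in Sham (590 to 702). Among those without one it had 439, 200 and 433 CPM in TAC+ART, TAC and Sham. Cells with a Cd163 UMI made up 70.1% of TAC+ART, 56.6% of TAC and 59.3% of Sham macrophages, at median depths of 4816, 5080 and 4293 UMIs. The other 35 members together had 2309, 2057 and 2689 CPM with Cd163, and 2330, 2391 and 2723 CPM without it, in the same order.

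The clusters of macrophages differed by library. The cluster with 735 TAC+ART and 229 Sham cells held 676 and 635 CPM of Ddx60, and only 9 TAC cells lay in it. The cluster of 795 TAC cells held 296 CPM. In the cluster shared by 283 TAC+ART, 620 TAC and 77 Sham cells, Ddx60 had 155, 91.2 and 190 CPM, and all members 2367, 2073 and 2959 CPM.

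Of the 32 members that reached 50 UMIs in TAC+ART and TAC macrophages, 19 were higher and 13 lower in TAC+ART, with a median of 0.08 beside -0.06 over all genes tested. By 1.5-fold or more, 3 were higher, where 6.69% of all genes were, and 2 lower, where 7.01% were. Ifit3 had 65 UMIs (15.2 CPM) in TAC+ART, 31 (4.89 CPM) in TAC and 18 (14.2 CPM) in Sham. Zbp1 had 16.8 CPM in TAC+ART, 9.31 in TAC and 16.5 in Sham. Both thus followed the order of Ddx60 at much lower counts. In the other direction, Irf7, the factor that amplifies interferon production, had 5.37 CPM in TAC+ART, 12.6 in TAC and 12.6 in Sham, a log2 ratio of TAC+ART over TAC of -1.21 (-1.97 to -0.55). Mx2, the paralog of Mx1, had 14.0 CPM in TAC+ART, 21.5 in TAC and 30.7 in Sham, and so was lowest in TAC+ART.

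Between TAC and Sham macrophages, 26 of 31 members were lower in TAC and 5 higher, with a median of -0.32 beside -0.01 over all genes tested. By 1.5-fold or more, 5 were lower, where 11.1% of all genes were, and 3 higher, where 12.3% were. The 5 were Ddx60, Zbp1, Oasl2, Mx1 and Trim30a. Trim30a, whose reads may also match close relatives, had 296 CPM in TAC+ART, 241 in TAC and 362 in Sham. Oasl2 had 102 CPM in TAC+ART, 82.5 in TAC and 136 in Sham. The 3 higher members were Isg15, Ifit2 and Bst2. Isg15 had 39 UMIs (9.10 CPM) in TAC+ART, 62 (9.79 CPM) in TAC and 4 (3.15 CPM) in Sham, so its ratio rests on few Sham molecules. Bst2 had 49.5 CPM in TAC+ART, 50.2 in TAC and 31.5 in Sham. The summed ratio of TAC over Sham was -0.44 (-0.49 to -0.39).

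Fibroblasts showed smaller differences between TAC+ART and TAC. Sp100 had 209 CPM in TAC+ART, 163 in TAC and 246 in Sham fibroblasts, a log2 ratio of TAC+ART over TAC of 0.35 (0.26 to 0.45). Ddx60 had 81.8 CPM in TAC+ART, 52.8 in TAC and 94.9 in Sham, with 0.63 (0.47 to 0.79). Ifit2 had 36.8 CPM in TAC+ART, 25.1 in TAC and 41.5 in Sham, with 0.55 (0.32 to 0.79). These genes were lowest in TAC, as in endothelial cells. Of the 33 members with 50 UMIs, 22 were higher and 11 lower in TAC+ART, with a median of 0.12 beside -0.04 over all genes tested. By 1.5-fold or more, 2 were higher (Ddx60 and Ifi44), where 8.73% of all genes were, and 1 lower (Oas1a), where 7.39% were. Ifi27 had 47.4 CPM in TAC+ART, 60.9 in TAC and 51.3 in Sham. Ifi35 had 33.8, 42.3 and 43.2 CPM in the same libraries. The log2 ratios of TAC+ART over TAC were -0.36 (-0.53 to -0.19) for Ifi27 and -0.32 (-0.53 to -0.12) for Ifi35.

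Between TAC and Sham fibroblasts, 23 of 31 members were lower in TAC and 8 higher, with a median of -0.29 beside 0.03 over all genes tested. By 1.5-fold or more, 8 were lower, where 13.1% of all genes were, and 3 higher, where 17.9% were. The lowest ratios were those of Ddx60 (-0.85), Ifit3b (-0.79), Xaf1 (-0.75), Usp18 (-0.74) and Ifit2 (-0.73). Usp18, which strips Isg15 from proteins and dampens the receptor, had 19.7 CPM in TAC+ART, 17.2 in TAC and 28.6 in Sham, with the TAC+ART value nearer to that of TAC. Xaf1, which binds the apoptosis inhibitor Xiap, had 30.3 CPM in TAC+ART, 25.3 in TAC and 42.6 in Sham. The 3 higher members were Oas2, Bst2 and Isg15. Bst2 had 34.1 CPM in TAC+ART, 37.4 in TAC and 23.3 in Sham, a log2 ratio of TAC over Sham of 0.68 (0.38 to 0.99). Isg15 had 9.95 CPM in TAC+ART, 10.7 in TAC and 7.01 in Sham. Fibroblasts of the libraries lay in largely separate clusters, with 1092 TAC+ART cells in one, 1400 TAC cells in another and 856 Sham cells in yet another. In the cluster shared by 315 TAC+ART, 219 TAC and 154 Sham cells the members summed to 1283, 1139 and 1406 CPM. The other clusters did not keep that order. The one with most TAC+ART cells had 1360 CPM in TAC+ART, 1771 in TAC and 1567 in Sham, and the one with most TAC cells had 1056 CPM in TAC+ART and 1173 in TAC. The one with most Sham cells had 1266 CPM in TAC+ART, 1272 in TAC and 1504 in Sham, and a further one 1227 in TAC+ART and 1217 in TAC. The higher sum of TAC+ART over TAC was thus seen in the class but not within most of its clusters. The summed ratios were 0.13 (0.09 to 0.16) for TAC+ART over TAC and -0.33 (-0.37 to -0.28) for TAC over Sham.

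**Figure D3:**
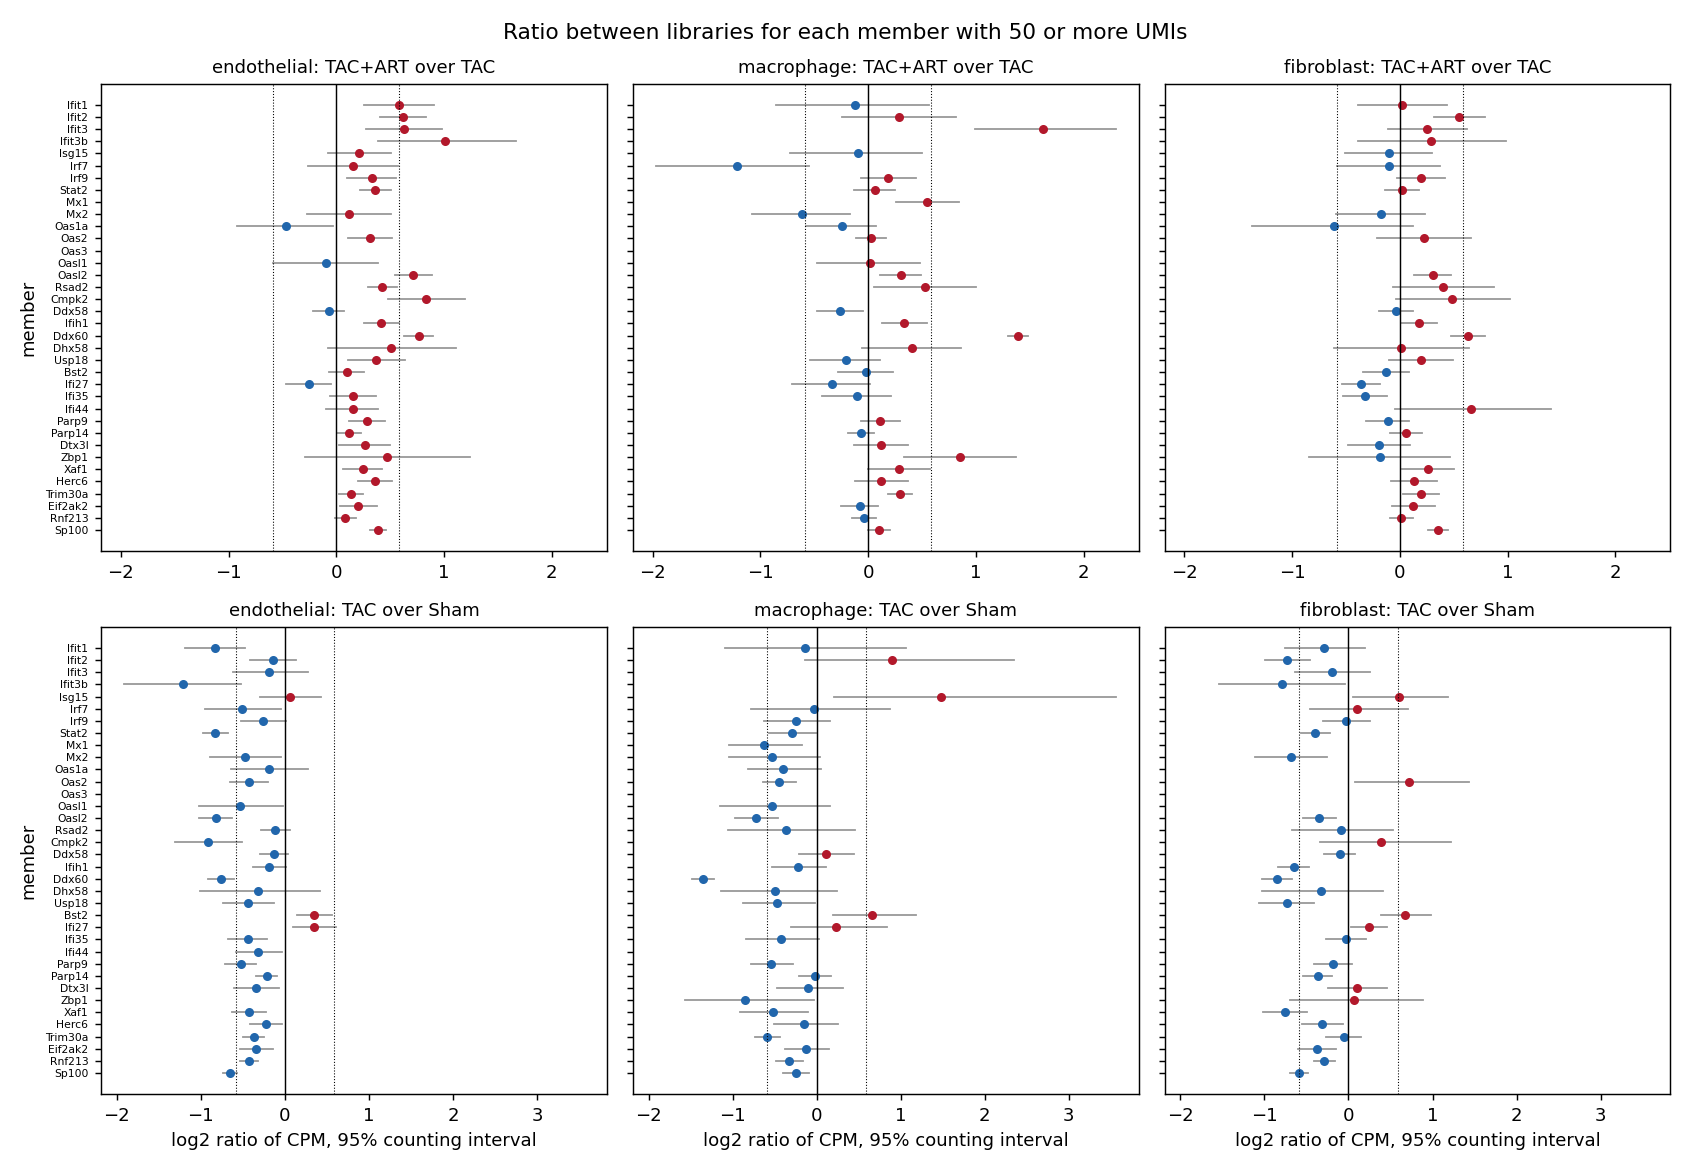
Log2 ratio of CPM (x axis) of TAC+ART over TAC (top) and TAC over Sham (bottom) for each member (y axis) with 50 or more UMIs in the 2 libraries, in endothelial cells, macrophages and fibroblasts. Lines are 95% counting intervals, dotted lines mark 1.5-fold, and red and blue points are above and below 0. Ddx60 of macrophages lies at 1.39 and -1.35, and Bst2 and Isg15 lie to the right of 0 in TAC over Sham in all 3 classes.

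Across these 3 classes, 27 members could be compared in TAC over Sham in each. Of these, 19 were lower in all 3 classes and 3 were higher in all 3, namely Bst2, Ifi27 and Isg15. Among all 10315 genes compared in the 3 classes, 24.4% were lower and 25.6% higher in all of them. In TAC+ART over TAC, 30 could be compared, 14 were higher in all 3 classes and 3 were lower in all 3, namely Ddx58, Ifi27 and Oas1a. Among all 11117 genes, 19.9% were higher and 31.9% lower in all 3. For Ddx58 in fibroblasts the ratio was -0.03 where the median of all genes was -0.04, so its sign turns when centred on that median. The classes come from the same 3 libraries and are not replicates of each other.

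The RNA sensors among the members differed from each other in these ratios. Ifih1 (MDA5), the sensor of long double-stranded RNA, had 96.6 CPM in TAC+ART, 72.4 in TAC and 82.3 in Sham endothelial cells, a log2 ratio of TAC+ART over TAC of 0.42 (0.25 to 0.58). In fibroblasts it had 61.7 CPM in TAC+ART, 54.5 in TAC and 85.4 in Sham, a ratio of TAC over Sham of -0.65 (-0.83 to -0.47). Dhx58 (LGP2), which modulates the other sensors, had 18.0, 13.6 and 18.9 CPM in TAC+ART, TAC and Sham macrophages, with intervals of both ratios that reached 0. Eif2ak2 (PKR), the kinase that halts translation on double-stranded RNA, had 81.4 CPM in TAC+ART, 70.6 in TAC and 89.3 in Sham endothelial cells, and 105, 111 and 120 CPM in macrophages. Ddx58 (RIG-I), the sensor of RNA ends, had 103 CPM in TAC+ART, 108 in TAC and 119 in Sham endothelial cells, with a ratio of TAC+ART over TAC of -0.07 (-0.22 to 0.07).

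Members under 50 UMIs in a comparison were Oas3 in all 3 classes, Mx1 and in TAC over Sham also Zbp1 in endothelial cells, and Ifit3b, Cmpk2, Ifi44 and in TAC over Sham also Ifit3 in macrophages. In fibroblasts they were Mx1 and Oasl1, and in TAC over Sham also Oas1a and Ifi44.

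Gene length moved with these ratios over the whole table. Isg15, Bst2 and Ifi27 span 1.40, 3.22 and 6.06 kb of the genome and Ddx60 spans 109.63 kb, the longest among the members. In TAC over Sham, all genes tested that span under 10 kb had a median log2 ratio of 0.37 in fibroblasts, 0.19 in endothelial cells and 0.19 in macrophages. Genes that span 50 kb or more had medians of -0.07, -0.12 and -0.06 in those classes. Members lay below all genes tested in each span range. Those under 10 kb had medians of -0.03 in fibroblasts, -0.26 in endothelial cells and -0.03 in macrophages (9, 9 and 7 members). Those of 10 to 50 kb had -0.27, -0.43 and -0.43 (16, 18 and 18 members), beside 0.02, -0.06 and -0.02 over all genes, and the 6 of 50 kb or more had -0.45, -0.40 and -0.29. In TAC+ART over TAC the short genes of the whole table were lower, with medians of -0.19 in fibroblasts, -0.14 in endothelial cells and -0.15 in macrophages. Members under 10 kb there had 0.01, 0.33 and -0.06. The part of gene length in the ratios of single members was not tested.

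Cardiomyocytes had few member UMIs, 648 in TAC+ART, 358 in TAC and 487 in Sham, and the summed ratio of TAC over Sham was 0.37 (0.17 to 0.57). It was 0.10 among cells of at most 8000 UMIs. Markers of other classes were also higher outside Sham in these cells, with a median of 17.1 fibroblast-marker UMIs per 10000 in TAC+ART, 21.9 in TAC and 4.83 in Sham cardiomyocytes, and 1.77, 3.15 and 0 for macrophage markers. Their part in the difference was not tested. In the cardiomyocyte cluster of 277 TAC+ART, 121 TAC and 265 Sham cells the members summed to 299, 280 and 227 CPM. In the cardiomyocyte cluster of 89, 110 and 40 cells they summed to 663 CPM in TAC+ART, 405 in TAC (348 to 468) and 515 in Sham (410 to 638). TAC was thus lowest there, with an interval that overlapped that of Sham. The part of the mix of clusters in the class sum was not tested. Parp9, one of 4 members with 50 UMIs, had 104 UMIs in TAC+ART (51.4 CPM), 32 in TAC (27.6 CPM) and 85 in Sham (41.7 CPM). Its log2 ratio of TAC+ART over TAC was 0.88 (0.31 to 1.51), and it was the only member past 1.5-fold, where 11.3% of all genes were higher and 19.7% lower by as much. Parp9 overlaps Dtx3l on chromosome 16, and how strand was handled in counting is unknown here. In TAC over Sham 3 members reached 50 UMIs and none was past 1.5-fold, where 22.9% of all genes were higher and 19.2% lower.

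In pericytes 19 members could be compared between TAC+ART and TAC, of which 8 were higher and 11 lower. Over all genes 46.8% were higher and 53.2% lower, so the members lay near that share. The median log2 ratio was -0.04 for the members and -0.03 over all genes tested. Herc6, the ligase that attaches Isg15 in mice, had 12.7 CPM in TAC+ART, 28.0 in TAC and 9.15 in Sham. Xaf1 had 31.6 CPM in TAC+ART, 14.0 in TAC and 22.6 in Sham, so these genes went opposite ways. Past 1.5-fold, 1 was higher (5.2% of all genes) and 2 lower (5.81%). In TAC over Sham 2 of 17 were higher by 1.5-fold, Herc6 and Bst2, where 10.6% of all genes were, and 3 lower, Ifi35, Irf9 and Xaf1, where 8.01% were.

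Endocardial cells, which line the chambers, had the same order of the summed level as the endothelial class. Ddx60 had 118 CPM in TAC+ART, 49.95 in TAC and 116 in Sham endocardial cells, and Sp100 had 461, 345 and 481 CPM. Bst2 had 83.5 CPM in TAC+ART, 49.4 in TAC and 40.1 in Sham, and so again had its lowest value in Sham. The summed log2 ratio was 0.30 (0.22 to 0.38) for TAC+ART over TAC and -0.40 (-0.48 to -0.31) for TAC over Sham.

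Member UMIs were unevenly spread over cells. To compare cells of unlike depth, each was thinned to 2000 UMIs, and cells with 10 or more member UMIs were counted. There were 1106 such cells among 15936. In endothelial cells they made up 13.6% in TAC+ART (11.97 to 15.5), 7.82% in TAC (6.62 to 9.16) and 16.7% in Sham (14.4 to 19.3). In macrophages they made up 14.4% in TAC+ART (12.1 to 16.8), 9.63% in TAC (8.04 to 11.4) and 22.8% in Sham (18.0 to 28.4). TAC had the lowest share in both classes, with intervals that did not overlap those of the other 2 libraries. Without thinning the shares were 47.4%, 37.6% and 40.5% of endothelial cells and 57.4%, 45.0% and 57.3% of macrophages, in the order TAC+ART, TAC and Sham. Thinning left out 51, 56 and 110 endothelial cells and 16, 24 and 28 macrophages that were shallower.

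In fibroblasts the shares were 1.95% in TAC+ART, 2.07% in TAC and 3.46% in Sham. No cardiomyocyte reached 10 member UMIs among 294 of TAC+ART, 184 of TAC and 281 of Sham, which allows shares of up to 1.25%, 1.99% and 1.30%. At that depth they averaged 0.711 member UMIs in TAC+ART, 0.636 in TAC and 0.47 in Sham, beside 5.61, 4.64 and 6.10 in endothelial cells. The number 10 lies within a continuous range. Among endothelial cells, 126 in TAC+ART, 100 in TAC and 78 in Sham had 8 or 9 member UMIs, while 71, 43 and 44 had 10 or 11, and 35, 33 and 32 had 20 or more.

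**Figure D4:**
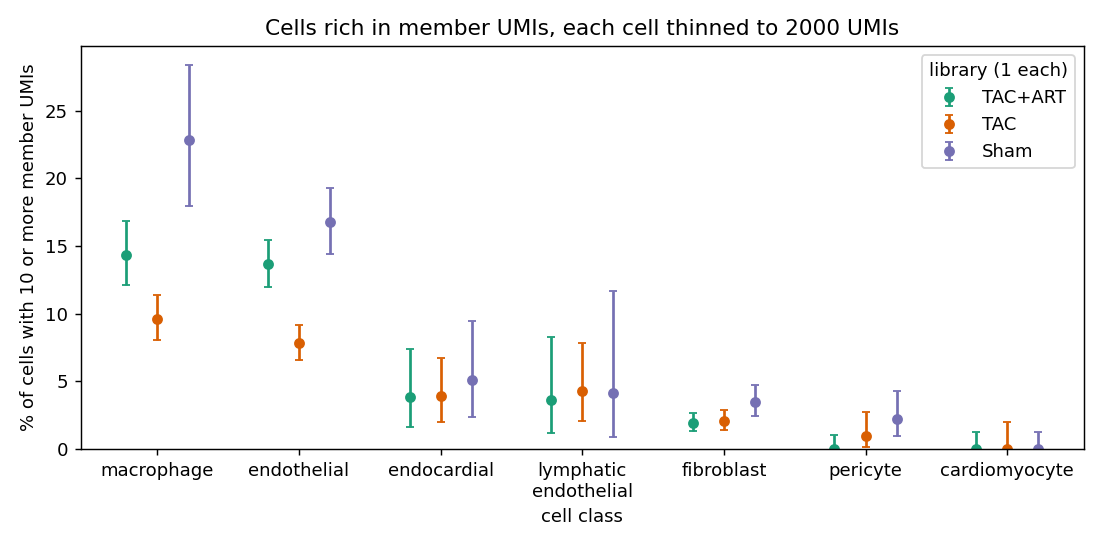
Share of cells with 10 or more member UMIs after thinning to 2000 UMIs per cell (y axis, percent) in 7 cell classes (x axis), 1 point per library, with exact 95% binomial intervals. Macrophages stand at 14.4%, 9.63% and 22.8% and endothelial cells at 13.6%, 7.82% and 16.7% in TAC+ART, TAC and Sham.

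Cells with 20 or more member UMIs had the same order, with 2.27% of TAC+ART, 1.84% of TAC and 3.41% of Sham endothelial cells and 1.82%, 1.54% and 3.00% of macrophages. These shares rest on 35, 33 and 32 endothelial cells and 16, 19 and 8 macrophages. Intervals were not computed for them, so the small gap between TAC+ART and TAC is uncertain. The highest count in 1 endothelial cell of 2000 UMIs was 45 in TAC+ART, 71 in TAC and 79 in Sham. The variance of the count over its mean, which is near 1 where every cell has the same expected count, was 4.09, 5.21 and 6.61 in endothelial cells of TAC+ART, TAC and Sham. In macrophages it was 3.62, 4.80 and 4.87, in fibroblasts 2.47, 3.22 and 2.85, and in cardiomyocytes 1.40, 1.02 and 1.75. Before thinning, the cell with the most members detected was a TAC macrophage with UMIs of 31 of the 36. Without thinning, UMIs of 15 or more members were found in 7.04% of TAC+ART, 4.44% of TAC and 6.20% of Sham endothelial cells. In the cluster led by Ccdc85a and Ablim3 the share with 10 or more member UMIs was 18.5% in TAC+ART, 24.4% in TAC and 18.7% in Sham.

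The members did not take an equal part in these cells. For each member, cells were split by the UMIs of the other 35 members, at 10 or more, so that its own count did not choose them. The counts were summed over the libraries at 2000 UMIs per cell. In endothelial cells Oasl1 had 13.3 UMIs per 100 cells where the others were many and 0.771 where they were few, a 17.1-fold difference. Ifit1 differed 14.2-fold, Mx2 10.9-fold and Ifit3 8.30-fold. At the other end, Sp100 differed 2.45-fold and Bst2 2.04-fold. Ifi27 had 8.28 UMIs per 100 cells where the others were many and 10.4 where they were few, a log2 ratio of -0.32 (-0.84 to 0.13). It was the only one of 33 members with 50 UMIs in this class whose interval reached 0.

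Ifi27 was also the lowest member in fibroblasts and macrophages. In fibroblasts Ifit1 differed 27.7-fold, Mx2 17.6-fold and Ifit3 14.0-fold, and Ifi27 1.04-fold. In macrophages Irf7 differed 9.22-fold, Mx1 7.59-fold and Zbp1 6.66-fold, and Ifi27 again 1.04-fold. Ddx60 differed 2.06-fold in macrophages and 3.61-fold in endothelial cells. The macrophage value joins libraries with unlike levels of Ddx60. Within them it differed 1.70-fold in TAC+ART, 2.98-fold in TAC and 1.43-fold in Sham, and in TAC 8 of the 29 members had a lower fold. In fibroblasts Ifit2 (2.01-fold) stood next to Ifi27. The libraries enter these sums with unlike shares of cells.

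**Figure D5:**
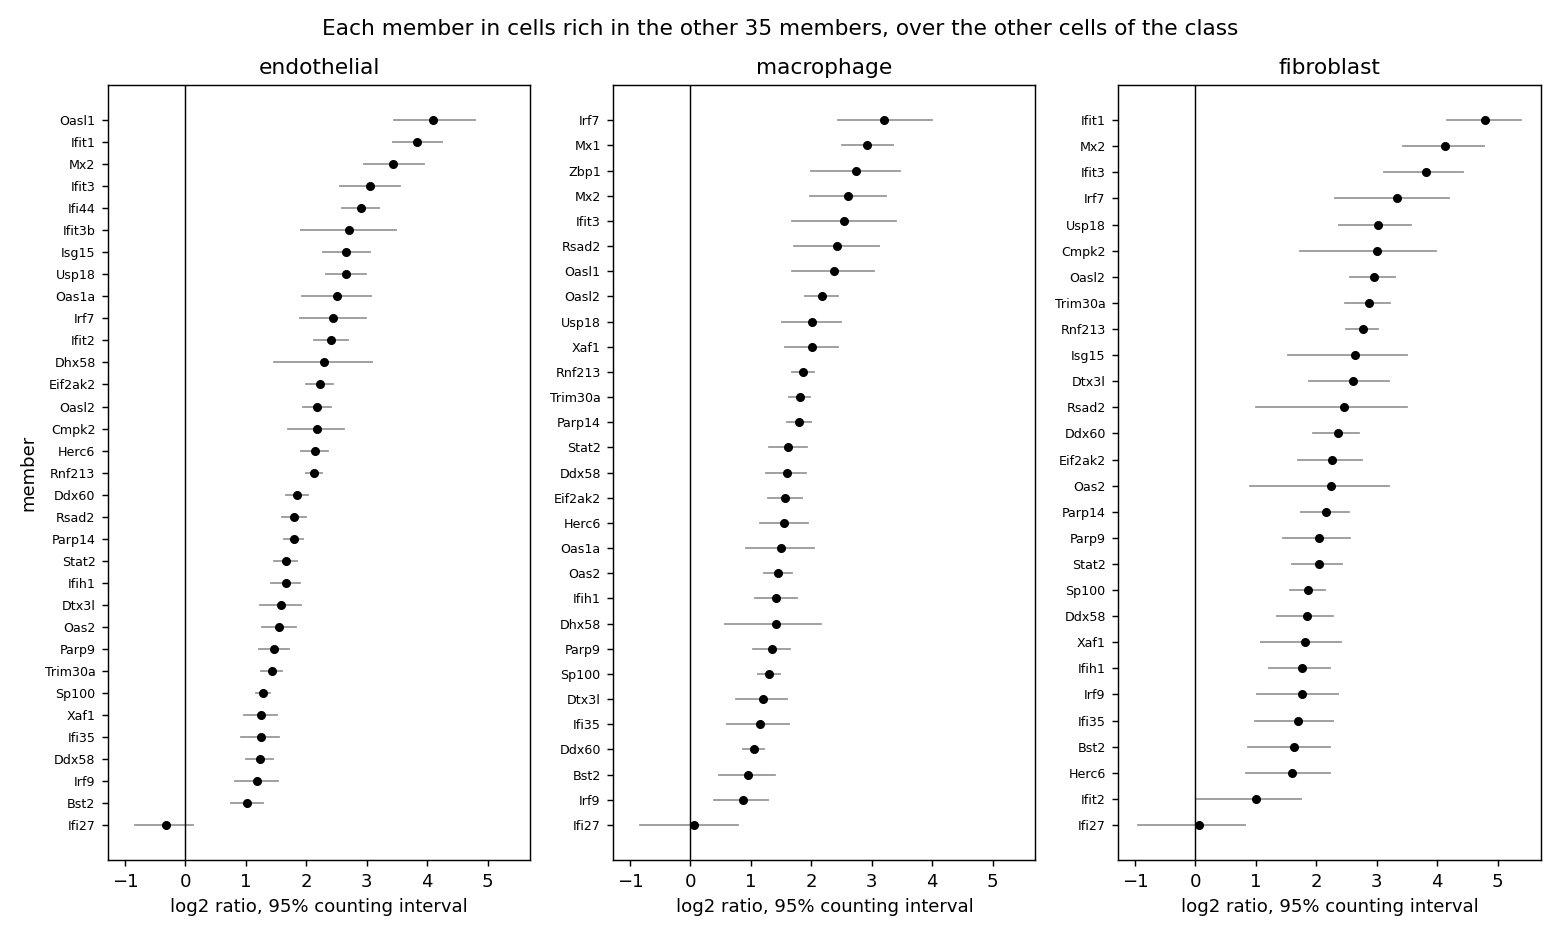
Log2 ratio (x axis) of each member's UMIs per cell in cells with 10 or more UMIs of the other 35 members over the remaining cells, for members (y axis) with 50 or more UMIs in endothelial cells, macrophages and fibroblasts, with 95% counting intervals. Ifi27 is lowest in all 3 panels, at -0.32, 0.06 and 0.06, and Ifit1 reaches 4.79 in fibroblasts.

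The upstream genes of the pathway were also compared. Of the interferons, Ifnk had 13 UMIs in TAC+ART, 8 in TAC and 6 in Sham over all cells and Ifnz had none. The other 10 of the list, among them Ifnb1 and Ifng, were not among the listed gene symbols and have no value here. Among 14 receptors, kinases and regulators, 10 of 13 tested were higher in TAC than in Sham endothelial cells, while 10 of 14 were lower in TAC+ART endothelial cells than in those of TAC. The medians were 0.18 for TAC over Sham and -0.23 for TAC+ART over TAC, beside -0.05 and -0.01 over all genes. Of all genes, 45.1% were higher in the former and 51.5% lower in the latter. In macrophages 9 of 12 were higher in TAC over Sham, where 49.2% of all genes were. There 7 of 12 (58.3%) were lower in TAC+ART over TAC, the share of all genes being 58.4%. In fibroblasts 7 of 12 were higher in TAC over Sham (52.4% of all genes) and 11 of 13 lower in TAC+ART over TAC (53.9%). Ifnar1 had 49.3 CPM in TAC+ART, 59.4 in TAC and 51.3 in Sham endothelial cells, and Ifnar2 had 90.1, 92.0 and 88.1 CPM. The receptor of interferon gamma differed more. Ifngr2 had 31.9 CPM in TAC+ART, 61.6 in TAC and 32.0 in Sham endothelial cells, a log2 ratio of -0.95 (-1.19 to -0.72) for TAC+ART over TAC and 0.94 (0.66 to 1.24) for TAC over Sham. It had 112, 179 and 112 CPM in macrophages and 35.4, 58.2 and 28.4 CPM in fibroblasts of the same libraries. Ifngr1 had 231 CPM in TAC+ART, 279 in TAC and 121 in Sham fibroblasts.

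Of 17 nucleic acid sensors and adaptors, 14 could be compared in TAC over Sham endothelial cells, with 7 higher and 7 lower and a median of 0.00. In macrophages 16 could be compared, with 5 higher and 11 lower and a median of -0.21. Of all genes, 54.9% were lower in endothelial cells and 50.8% in macrophages. Sting1, the adaptor of the cytosolic DNA sensor Cgas, had 13.3 CPM in TAC+ART, 20.9 in TAC and 15.6 in Sham endothelial cells. Ifi204, a DNA sensor of the same family as Aim2 that interferon itself induces, had 176 CPM in TAC+ART, 131 in TAC and 198 in Sham macrophages, the order of the members. Of 6 further genes, the interferon regulatory factors outside the members and Irf2bp2, 5 were higher in TAC than in Sham endothelial cells, and 5 were lower in the TAC+ART than in the TAC ones, where 45.1% of all genes were higher and 51.5% lower. In macrophages it was otherwise, with 1 higher and 5 lower in TAC over Sham and 3 each way in TAC+ART over TAC. There 50.8% of all genes were lower in TAC over Sham and 58.4% in TAC+ART over TAC. Irf1 had 55.8 CPM in TAC+ART, 83.1 in TAC and 66.4 in Sham endothelial cells.

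The libraries held 33364667 UMIs in TAC+ART, 37658150 in TAC and 17710689 in Sham. Pairs of libraries shared 20 to 27 cell barcodes. Of the kept cells, 1806 carried markers of more than 1 class and were left out of the classes, 933 of TAC+ART, 713 of TAC and 160 of Sham. Over the 3 libraries, 96.7% to 98.9% of endothelial cells, macrophages, fibroblasts and cardiomyocytes lay in clusters given the same name. Between 19 and 266 cells of each of the 4 main classes lay within 1.2-fold of the marker threshold. Fibroblast markers in cells of other classes differed by library, with medians of 29.9, 25.6 and 10.4 UMIs per 10000 in endothelial cells and 26.2, 22.2 and 9.58 in macrophages of TAC+ART, TAC and Sham. Their part in the ratios was not tested.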

How the data were processed

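Per the submitters' processing notes, Cell Ranger, Seurat and the mm10 build were used. Their versions, the annotation and the handling of strand and introns are unknown here. The deposited files hold UMI counts per gene and barcode, whole numbers with no scaling by the authors, for 3 libraries with 1 library per group.

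From these counts, barcodes were removed that had fewer than 500 UMIs, fewer than 300 genes or more than 10% of UMIs from mitochondrial genes. Doublets were scored against simulated doublets (2 per barcode, 2000 variable genes, 30 components), and the top 0.8% per 1000 barcodes of a library were removed, which left 17090 of 18021 barcodes. Classes were set by marker UMIs per 10000, with minimums of 50 for fibroblasts, 250 for cardiomyocytes, 40 for endocardial cells, 30 for lymphatic cells and 25 for endothelial cells, macrophages and pericytes, and with at least 3 markers detected. Cells that met more than 1 class were left out, except that the endothelial, endocardial and lymphatic endothelial classes did not exclude each other. A cell that met the endocardial or lymphatic minimum was not counted as endothelial. Clusters came from the Leiden method (30 components, 20 neighbours, resolution 1).

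Counts were summed per class and library. A log2 ratio adds 0.5 to each sum, and a gene was compared where the 2 libraries held at least 50 UMIs. No test could be run between single libraries, and a ratio past 1.5-fold was the only call. The 95% intervals are exact Poisson or binomial intervals for counting error. The steps were tested on simulated data. Python 3.11.15, NumPy 2.4.6, SciPy 1.17.1, pandas 2.3.3, Scanpy 1.11.5, leidenalg 0.10.2, igraph 0.11.9, scikit-learn 1.9.0 and Matplotlib 3.10.9 were used.

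The members and gene lists were chosen with earlier results of these data known. By rule the text names the 8 members with the highest level and up to 5 with the highest and 5 with the lowest ratio per class and comparison. Members named for their class pattern, promoter or spread over cells were chosen after their values were seen. Alternatives changed the filters, the gate, the depth limit, the UMI minimum, the fold, the weighting of cells and the leading member.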

Additional observations from a re-analysis of the deposited data

Results flagged for a closer look

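Cardiomyocytes went the opposite way from the other main classes in both comparisons with Sham. For TAC over Sham the summed log2 ratio of the members was 0.371 in cardiomyocytes, -0.325 in fibroblasts, -0.411 in endothelial cells and -0.438 in macrophages. For TAC+ART over Sham it was 0.422 in cardiomyocytes, -0.197 in fibroblasts, -0.124 in endothelial cells and -0.173 in macrophages. The difference between classes was not tested, since each group is 1 library. In cardiomyocytes of at most 8000 UMIs the ratio of TAC over Sham was 0.098. In the smaller cardiomyocyte cluster TAC lay below Sham, at 405 CPM against 515, with overlapping counting intervals.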

How the results depend on the processing

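Of 72 recomputed sums of members, 56 stayed within the counting error of the reported log2 ratio and 16 moved beyond it. The only change of sign among these 72 was in cardiomyocytes for TAC+ART over TAC, -0.067 without Parp9 against 0.05 with it, both within the counting interval of the reported ratio (-0.14 to 0.24). With cells of at most 8000 UMIs the sum was 0.172 in fibroblasts and 0.33 in cardiomyocytes for TAC+ART over TAC, and 0.098 in cardiomyocytes for TAC over Sham. Without Sp100 it was 0.089 (TAC+ART over TAC) and -0.278 (TAC over Sham) in fibroblasts and -0.362 (TAC over Sham) in endothelial cells. Without Ddx60 it was 0.079 in macrophages for TAC+ART over TAC. With each cell weighted the same it was -0.373 in endothelial cells for TAC over Sham. Among alternatives chosen after seeing the data, centring on the median of all genes gave 0.166 in fibroblasts and 0.33 in macrophages for TAC+ART over TAC, and -0.363 in endothelial cells for TAC over Sham. Leaving out cells with 10 or more member UMIs gave 0.196 in fibroblasts, 0.222 in endothelial cells and 0.306 in macrophages for TAC+ART over TAC, and -0.203 in endothelial cells and -0.334 in macrophages for TAC over Sham. It also turned endothelial TAC+ART over Sham to 0.019, against -0.124 with all cells. Apart from what each setting leaves out by construction, the cause was not tested.

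Of 64 recomputed counts of members past 1.5-fold, 47 stayed within 1.5 times the reported count. At 2-fold, fewer passed by construction. For TAC+ART over TAC there were 0 in fibroblasts (3 at 1.5-fold), 1 in endothelial cells (6), 3 in macrophages (5) and 0 in cardiomyocytes (1), and for TAC over Sham 0 in fibroblasts (11), 1 in endothelial cells (7) and 2 in macrophages (8). At least 20 UMIs gave 5 in fibroblasts and 8 in cardiomyocytes for TAC+ART over TAC, and 5 in cardiomyocytes for TAC over Sham. At least 100 UMIs gave 1 in fibroblasts for TAC+ART over TAC and 5 in macrophages for TAC over Sham. The stricter gate gave 5 in fibroblasts for TAC+ART over TAC. In cardiomyocytes, keeping doublets gave 2 and 2, and classes from clusters gave 3 and 1, for TAC+ART over TAC and TAC over Sham.

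Shares of cells rich in member UMIs moved with the limit, but TAC stayed lowest in endothelial cells and macrophages at 9 or more, at 11 or more and at 5 or more of 1000 UMIs. At 9 or more they were 17.3%, 9.83% and 21.1% of endothelial cells and 19.5%, 12.1% and 28.1% of macrophages in TAC+ART, TAC and Sham. No replicate could be left out, and no paired analysis was possible because each group is 1 library. Few member UMIs limit cardiomyocytes most among the main classes, with 358 in the 191 cells of TAC.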
